A study of Mus musculus with 12 samples.

Results

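The 9 genes described here encode receptors, signal carriers, feedback regulators and target genes of the transforming growth factor beta (TGF-beta) and bone morphogenetic protein (BMP) pathways. They are the receptors Tgfbr1 and Tgfbr2, the signal carrier Smad3, the inhibitor Smad7, the corepressor Skil, the ID genes Id1, Id2 and Id3, and the matrix gene Tgfbi. Members were taken by gene name from the deposited count table, which lists 12208 genes. All 9 were found, and all 9 passed the filter on low counts that left 12027 tested genes.

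All groups are derivatives of 393P, a lung cancer line from mouse that the labels call epithelial and non-metastatic, grown untreated in the same serum-supplemented medium. A GFP vector line (vector) is set beside a wild-type Zeb1 line (WT) and 2 mutant lines whose genotypes read Zeb1_deficient and Zeb1_mimetic. The series title concerns acetylation of ZEB1, and the labels do not say what was changed in these forms. The labels number 3 biological replicates in each line, whereas the design text counts 2, which bears on every n given. A form is present as 1 line only, the labels name no promoter for it, and none says how separate the cultures were, so p-values cover library-to-library spread and the Zeb1 form and other differences between lines cannot be told apart.

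In the TGF-beta branch, a ligand binds TGFBR2, which activates TGFBR1, and the active receptor phosphorylates SMAD2 and SMAD3, which enter the nucleus with SMAD4. BMP ligands use related receptors and SMAD1, SMAD5 and SMAD9, and the ID genes are classical BMP targets that TGF-beta can also raise or repress. Smad7 and Skil are induced by the signal and restrain it. In carcinoma cells the TGF-beta branch is a known inducer of the epithelial-mesenchymal transition and of Zeb1, a repressor of epithelial genes.

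Library totals were 24.4 to 27.5 M counts in mimetic and 28.4 to 39 M in the other lines, so the mimetic libraries were the shallowest. Vector replicate 3 and deficient replicate 3 stood apart from the other libraries of their lines, with a mean chi-square per gene of 13.7 to 23.6 against 2.96 to 6.23 for the other pairs, and member calls that change without either are given beside the result. As a check of the labels, Zeb1 RNA had 31.3 ± 2.8 CPM (counts per M counts) in the vector line, against 244 ± 6.9 with WT, 484 ± 13 with deficient and 228 ± 12 with mimetic (SD, n = 3). This check sets vector apart from the Zeb1 lines, and cannot show which Zeb1 line holds which form. Zeb1 RNA was 2.12-fold lower in mimetic than in deficient, and the part of its level in the differences between forms was not tested. Of 6 epithelial markers, 5 were in the table (Cdh1, Krt7, Krt8, Krt18 and Krt19), and Epcam is not analysed here. Their summed level was 9050 to 10500 CPM for vector, 7690 to 7820 for deficient, 5560 to 5730 for mimetic and 4170 to 4320 for WT. Of the leukocyte markers Cd68 (1 of 4 listed) ran from 2.12 to 8.43 CPM over all libraries. The fibroblast marker Pdgfra (1 of 4) reached 1.06 CPM. The endothelial markers Pecam1 and Kdr (2 of 3) summed to 5.37 to 7.15 CPM in deficient, 2.61 to 3.11 in mimetic and at most 1.14 elsewhere. Most of the sum in the mutants was Kdr, at 5.91 ± 0.91 CPM in deficient and 2.4 ± 0.064 in mimetic, against 0.478 ± 0.26 in vector. Pecam1 reached at most 0.638 CPM in any library. The part that depth and these markers play in the results was not tested. In bulk RNA, fewer cells of a kind and less RNA per cell cannot be told apart.

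The promoters of 5 members are shown because they belong to the receptor pair, to ID genes, and to the member with the largest fold changes. Each is the 250 bases before a RefSeq start site in build GRCm38.p6 (for Tgfbr1, which has 2 in the table, the upstream one), written 5′ to 3′ on the gene's strand. They lie at chr4:47352972-47353221 on the plus strand for Tgfbr1, chr9:116175364-116175613 on the minus strand for Tgfbr2, chr12:25096093-25096342 on the minus strand for Id2, chr4:136143572-136143821 on the plus strand for Id3, and chr13:56609336-56609585 on the plus strand for Tgfbi. The Id2 and Id3 stretches lie inside the GENCODE M21 spans of these genes given below, and the Tgfbi stretch crosses the start of its span. Capitals mark the SMAD box CAGAC or its reverse complement GTCTG, and the GC-rich SMAD element GGCGCC, a palindrome.
Tgfbr1: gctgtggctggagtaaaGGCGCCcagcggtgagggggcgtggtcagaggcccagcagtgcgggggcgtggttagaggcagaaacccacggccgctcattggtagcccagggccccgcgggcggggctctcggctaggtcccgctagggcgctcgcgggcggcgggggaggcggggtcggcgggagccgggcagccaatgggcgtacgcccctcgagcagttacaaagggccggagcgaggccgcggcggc
Tgfbr2: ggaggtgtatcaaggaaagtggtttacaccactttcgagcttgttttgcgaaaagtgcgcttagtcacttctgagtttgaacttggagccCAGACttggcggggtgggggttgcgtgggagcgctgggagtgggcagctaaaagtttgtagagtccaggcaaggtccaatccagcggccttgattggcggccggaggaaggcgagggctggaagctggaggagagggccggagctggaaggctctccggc
Id2: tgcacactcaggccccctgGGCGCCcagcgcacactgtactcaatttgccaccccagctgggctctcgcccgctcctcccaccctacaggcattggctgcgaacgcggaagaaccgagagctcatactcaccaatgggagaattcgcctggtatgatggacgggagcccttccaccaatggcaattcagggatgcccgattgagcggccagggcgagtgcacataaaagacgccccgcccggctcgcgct
Id3: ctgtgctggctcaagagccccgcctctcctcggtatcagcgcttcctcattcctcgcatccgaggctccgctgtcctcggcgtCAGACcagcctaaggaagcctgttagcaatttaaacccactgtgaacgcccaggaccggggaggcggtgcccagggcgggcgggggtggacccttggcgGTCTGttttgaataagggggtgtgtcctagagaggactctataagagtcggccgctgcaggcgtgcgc
Tgfbi: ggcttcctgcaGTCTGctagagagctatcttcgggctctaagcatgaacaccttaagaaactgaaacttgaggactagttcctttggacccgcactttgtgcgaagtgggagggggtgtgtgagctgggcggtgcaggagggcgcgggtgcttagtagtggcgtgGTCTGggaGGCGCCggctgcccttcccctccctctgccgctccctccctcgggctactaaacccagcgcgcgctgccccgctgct

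In all, 6 of the 9 members had promoter windows in the RefSeq table, 7 windows of 300 bases (250 before to 50 after the start site), searched on both strands. The missing entries are Smad7, Skil and Id1. The SMAD box was in 4 of the 7 windows, against 49.6% of all 32851 windows in the table, and the GC-rich element in 3, against 11.9%. The windows with the GC-rich element had 74.7% (Tgfbr1), 63.3% (Id2) and 63.3% (Tgfbi) G or C. That share was not computed for all windows, and Tgfbr1 counts with 2 windows, so these counts are a description. For Tgfbr1 the SMAD box lay 203 bases before its downstream start site, in the window that is not shown, and the printed window holds the GC-rich element. Tgfbi held both, with SMAD boxes 239 and 85 bases and the GC-rich element 77 bases before the start site, and Id3 held SMAD boxes at 167 and 68 bases. The E-box that ZEB1 binds, CACCTG or CAGGTG, was in 0 of the 7 windows and in 20.2% of all windows, which says only that these letters are not in these windows. No matches of different motifs overlapped in the members' windows. The Smad3 window, whose sequence is not shown, held none of these motifs.

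The question put to the members was how their RNA differed between vector and each Zeb1 form, and between the forms. Levels are CPM after scaling by TMM-normalised library size. A difference was called at an adjusted p under 0.05 from edgeR's quasi-likelihood test, Benjamini-Hochberg adjusted over all 12027 genes, the sense in which members rose or fell below. Counts are 3′ tags, so a value follows transcripts and not their length.

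Vector had the lowest mean of the 4 lines for 4 of the 9 members (Tgfbr1, Id2, Id3 and Tgfbi) and WT for 4 others (Tgfbr2, Smad7, Skil and Id1). Mimetic had the highest mean for 5 (Tgfbr1, Tgfbi and the 3 ID genes), deficient for 3 (Tgfbr2, Smad7 and Skil) and vector for Smad3. The members thus did not move as a block. How often each line was highest or lowest over all tested genes was not computed.

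**Figure D1:**
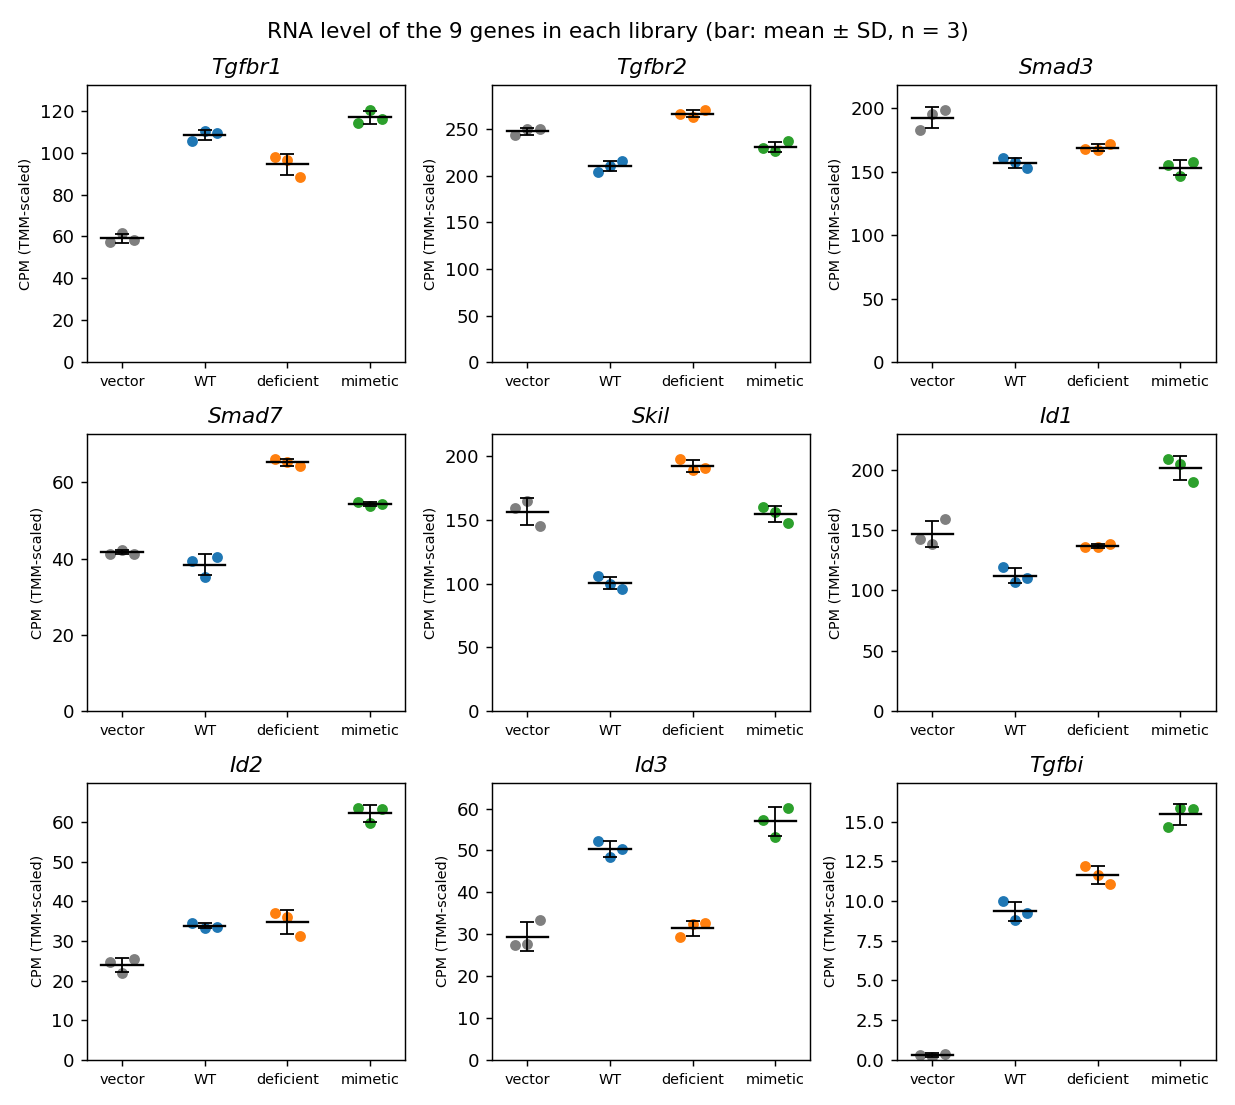
RNA level of each of the 9 genes in CPM (vertical axes, from 0) in each of the 3 libraries of vector, WT, deficient and mimetic; points are libraries, and bars show the mean ± SD. Id1 and Id2 stand apart in the mimetic libraries (190 to 209 and 59.8 to 63.6 CPM), Smad7 in the deficient libraries (64.2 to 66.2 CPM), and Tgfbi is near 0 in vector alone.

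The 2 receptors moved differently. Tgfbr1, the signalling receptor that phosphorylates SMAD2 and SMAD3 (chromosome 4, 47353222 to 47414931, GRCm38, GENCODE M21), stood at 57.4, 61.6 and 58.3 CPM in vector. Its 3 libraries had 106, 110 and 109 CPM in WT, 98.2, 96.5 and 88.5 in deficient, and 114, 120 and 116 in mimetic. Every library of a Zeb1 line lay above every vector library. Chromosome 4 also holds Id3. Over its 620 genes with 5 CPM or more, the median log2 fold change against vector was 0.17, 0.09 and 0.09 in WT, deficient and mimetic. The part of the chromosome in the Tgfbr1 and Id3 values was not tested. Tgfbr1 rose 1.83-fold in WT (log2 0.87, SE 0.05, adjusted p = 3.99e-12), 1.6-fold in deficient and 1.98-fold in mimetic. Deficient was lower than WT (log2 -0.20, SE 0.05, adjusted p = 0.00185) and than mimetic, which was 1.24-fold higher (adjusted p = 7.53e-05). Mimetic and WT differed by 0.11 (SE 0.05, adjusted p = 0.078), a difference called without deficient replicate 3 (adjusted p = 0.0485), in a fit of those lines alone (0.0337), with a filter at 5 CPM (0.0335) and with library-size scaling (0.00936).

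Tgfbr2, the ligand-binding receptor (chromosome 9, 116084293 to 116175360), changed less. It had 243, 250 and 250 CPM in vector, 204, 211 and 216 in WT, 267, 262 and 270 in deficient, and 230, 226 and 237 in mimetic. No pair of lines overlapped, and the order was deficient, vector, mimetic, WT. Tgfbr2 fell 1.18-fold in WT against vector (log2 -0.23, SE 0.04, adjusted p = 2.02e-05) and was 1.27-fold higher in deficient than in WT (adjusted p = 2.93e-07) and 1.15-fold lower in mimetic than in deficient (adjusted p = 0.000422).

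The remaining Tgfbr2 calls were less firm. The rise in deficient against vector (log2 0.11, SE 0.04, adjusted p = 0.0224) was lost without vector replicate 1 (adjusted p = 0.0787), deficient replicate 1 (0.0523) or deficient replicate 3 (0.0511), and in a fit of those lines alone (0.0738). The fall in mimetic against vector (log2 -0.10, SE 0.04, adjusted p = 0.0328) was lost without vector replicate 2 (0.0704) or 3 (0.0537), without mimetic replicate 1 (0.0799) or 2 (0.115), and with library-size scaling (0.587), a filter at 5 CPM (0.0604) or a fit of those lines alone (0.0923). Mimetic exceeded WT by 0.14 (SE 0.04, adjusted p = 0.0069), a call lost without WT replicate 1 (0.0607).

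Smad3, which carries the TGF-beta signal to the nucleus (chromosome 9, 63646767 to 63757994), was highest in vector. Its libraries held 183, 196 and 199 CPM in vector, 161, 158 and 153 in WT, 168, 167 and 172 in deficient, and 156, 147 and 158 in mimetic. All 9 libraries of the Zeb1 lines lay under the lowest vector library. Smad3 fell 1.23-fold in WT (adjusted p = 5.7e-06), 1.14-fold in deficient (adjusted p = 0.000939) and 1.26-fold in mimetic (adjusted p = 1.72e-06). Among the Zeb1 lines the differences were small, with a log2 difference of -0.03 between mimetic and WT (SE 0.04, adjusted p = 0.547). Smad3 was 1.1-fold lower in mimetic than in deficient (adjusted p = 0.0202), a call lost without deficient replicate 3 (adjusted p = 0.0508) or mimetic replicate 2 (0.113) and with library-size scaling (0.0533). Its 1.08-fold higher level in deficient than in WT (adjusted p = 0.0446) was lost in 10 of 20 alternatives, among them DESeq2 (0.0732), RLE scaling (0.0706), no filter (0.0502), and leaving out any 1 WT library (0.0789, 0.12 and 0.213 for replicates 1, 2 and 3), any 1 deficient library (0.0803, 0.0708 and 0.103) or mimetic replicate 1 (0.0558).

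Smad7, the inhibitory SMAD that blocks and removes active receptors (chromosome 18, 75367529 to 75395935), was raised in both mutants but not in WT. It stood at 41.3, 42.3 and 41.3 CPM in vector, 39.4, 35.3 and 40.4 in WT, 66.2, 65.5 and 64.2 in deficient, and 54.7, 53.7 and 54.3 in mimetic. The 3 deficient libraries were the highest, the 3 mimetic libraries came next, and vector and WT lay close together without overlap. Smad7 rose 1.57-fold in deficient (log2 0.65, SE 0.06, adjusted p = 4.99e-09) and 1.3-fold in mimetic (adjusted p = 8.15e-06) against vector. Relative to WT it was 1.7-fold and 1.42-fold higher (adjusted p = 5.66e-10 and 6.32e-07), and it was 1.2-fold lower in mimetic than in deficient (adjusted p = 0.00123). WT and vector differed by -0.12 (SE 0.06, adjusted p = 0.0763), which was called without WT replicate 3 (log2 -0.15, adjusted p = 0.0463). Over the 256 genes of chromosome 18 with 5 CPM or more, the median log2 fold change against vector was -0.25, -0.26 and -0.29 in WT, deficient and mimetic. The part of the chromosome in the Smad7 values was not tested.

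Skil, which encodes the SMAD corepressor SnoN (chromosome 3, 31095058 to 31122577), followed a similar order. It had 160, 165 and 145 CPM in vector, 106, 100 and 96.1 in WT, 198, 189 and 191 in deficient, and 160, 157 and 148 in mimetic. WT was lowest and deficient highest in every library, while mimetic and vector overlapped. Skil fell 1.56-fold in WT (log2 -0.64, SE 0.05, adjusted p = 1.15e-09) and rose 1.23-fold in deficient (adjusted p = 4.18e-05) against vector, and mimetic and vector differed by -0.02 (SE 0.05, adjusted p = 0.805). The deficient line held 1.91 times the WT level (log2 0.94, SE 0.05, adjusted p = 5.6e-12), mimetic was 1.54-fold above WT (adjusted p = 6.9e-09), and mimetic was 1.24-fold below deficient (adjusted p = 9.37e-05). Over the 490 genes of chromosome 3 with 5 CPM or more, the median log2 fold change was 0.22 in each mutant against WT and -0.18 in WT against vector, and the part of the chromosome in these values was not tested.

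The ID genes encode helix-loop-helix proteins without a DNA-binding region, which bind E proteins and keep them from DNA. All 3 were highest in mimetic, and below it each followed its own order. Id1 (chromosome 2, 152736251 to 152737410) had 142, 139 and 159 CPM in vector, 119, 107 and 110 in WT, 136, 136 and 139 in deficient, and 209, 205 and 190 in mimetic. Mimetic lay above and WT below all other libraries, while deficient and vector overlapped. Id1 fell 1.31-fold in WT (log2 -0.39, SE 0.05, adjusted p = 3.18e-06) and rose 1.37-fold in mimetic (log2 0.46, SE 0.05, adjusted p = 3.61e-07) against vector. Mimetic was 1.79-fold above WT (adjusted p = 1.46e-10) and 1.47-fold above deficient (adjusted p = 1.12e-07). Deficient exceeded WT 1.22-fold (adjusted p = 0.000171), and deficient and vector differed by -0.10 (SE 0.05, adjusted p = 0.121), which was called without vector replicate 2 (log2 -0.14, adjusted p = 0.0452).

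Id2 (chromosome 12, 25093799 to 25097140) stood at 24.7, 22 and 25.3 CPM in vector, 34.6, 33.4 and 33.6 in WT, 37.1, 35.9 and 31.3 in deficient, and 63.6, 59.8 and 63.2 in mimetic. The 3 Zeb1 lines lay above vector, mimetic far above the others, and WT and deficient overlapped. Over the 348 genes of chromosome 12 with 5 CPM or more, the median log2 fold change against vector was 0.19, 0.17 and 0.16 in WT, deficient and mimetic. The part of the chromosome in the Id2 values was not tested. Id2 rose 1.41-fold in WT (adjusted p = 5.16e-06), 1.45-fold in deficient (adjusted p = 2.37e-06) and 2.59-fold in mimetic (log2 1.37, SE 0.07, adjusted p = 1.24e-12). Mimetic was 1.84-fold above WT and 1.79-fold above deficient (adjusted p = 3.52e-09 and 1.28e-08), whereas deficient and WT differed by 0.04 (SE 0.07, adjusted p = 0.658).

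Id3 (chromosome 4, 136143497 to 136145755) held 27.3, 27.6 and 33.4 CPM in vector, 52.2, 48.3 and 50.3 in WT, 29.3, 32.4 and 32.6 in deficient, and 57.3, 53.2 and 60.2 in mimetic. WT and mimetic stood high, and deficient overlapped vector. Id3 rose 1.7-fold in WT (log2 0.77, SE 0.08, adjusted p = 2.41e-08) and 1.93-fold in mimetic (log2 0.95, SE 0.08, adjusted p = 1.37e-09). Deficient and vector differed by 0.09 (SE 0.08, adjusted p = 0.328), and deficient was 1.6-fold below WT (adjusted p = 2.9e-07) and 1.81-fold below mimetic (adjusted p = 3.37e-08). Vector replicate 3 was the highest of its line for Id3, and without it the deficient line was called higher than vector (log2 0.19, adjusted p = 0.0243). Mimetic and WT differed by 0.18 (SE 0.07, adjusted p = 0.0561), and this was called without vector replicate 2 (adjusted p = 0.0492), vector replicate 3 (0.0188) or mimetic replicate 2 (0.0383), with limma-voom (0.0421), library-size scaling (0.0133), a filter at 5 CPM (0.035), the replicate block (0.0403) and a fit of those lines alone (0.00787).

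Tgfbi, a secreted matrix protein named for its induction by TGF-beta (chromosome 13, 56609523 to 56639562), changed most. Raw counts were 10, 5 and 15 in the vector libraries, and 260 to 446 in the 9 libraries of the Zeb1 lines. In CPM it stood at 0.302, 0.154 and 0.396 in vector, 9.99, 8.8 and 9.26 in WT, 12.2, 11.6 and 11.1 in deficient, and 14.7, 15.9 and 15.8 in mimetic. The 4 lines did not overlap, and the order was mimetic, deficient, WT, vector. Tgfbi rose 31.8-fold in WT (log2 4.99, SE 0.19, adjusted p = 3.9e-15), 39.7-fold in deficient (log2 5.31, SE 0.18, adjusted p = 2.21e-15) and 52.6-fold in mimetic (log2 5.72, SE 0.18, adjusted p = 4.77e-16). These folds rest on few vector counts. In absolute log2 fold change Tgfbi stood at the 99.7th, 99.9th and 99.9th percentile of all tested genes in those comparisons. Among the Zeb1 lines it was 1.65-fold higher in mimetic than in WT (adjusted p = 1.94e-05), 1.33-fold higher in mimetic than in deficient (adjusted p = 0.00745) and 1.25-fold higher in deficient than in WT (adjusted p = 0.0192). The last call was lost without WT replicate 2 (adjusted p = 0.0923), WT replicate 3 (0.0579) or deficient replicate 1 (0.0721).

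Against vector, 4 of the 9 members rose and 4 fell in WT, where 31% of all tested genes rose and 33.6% fell (64.6% called in all). In deficient 6 rose and 1 fell, against 28.4% and 29.8% of all genes (58.2% called). In mimetic 6 rose and 2 fell, against 28.6% and 30.9% (59.5% called), or 6 and 1 of the members with library-size scaling. Libraries did not overlap with vector for 9 members in WT, 7 in deficient and 8 in mimetic, against 68%, 60.1% and 62.6% of all genes. That scaling moved the share of higher calls among all called genes from 48% to 59.1% in mimetic against vector. The median log2 fold change over the members was -0.12, 0.30 and 0.46 in WT, deficient and mimetic, and over all genes -0.01, 0 and 0. The 3 comparisons share the vector libraries. Of the members, 1, 1 and 2 were called and changed at least 2-fold, against 12.4%, 8.54% and 9.36% of all tested genes.

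**Figure D2:**
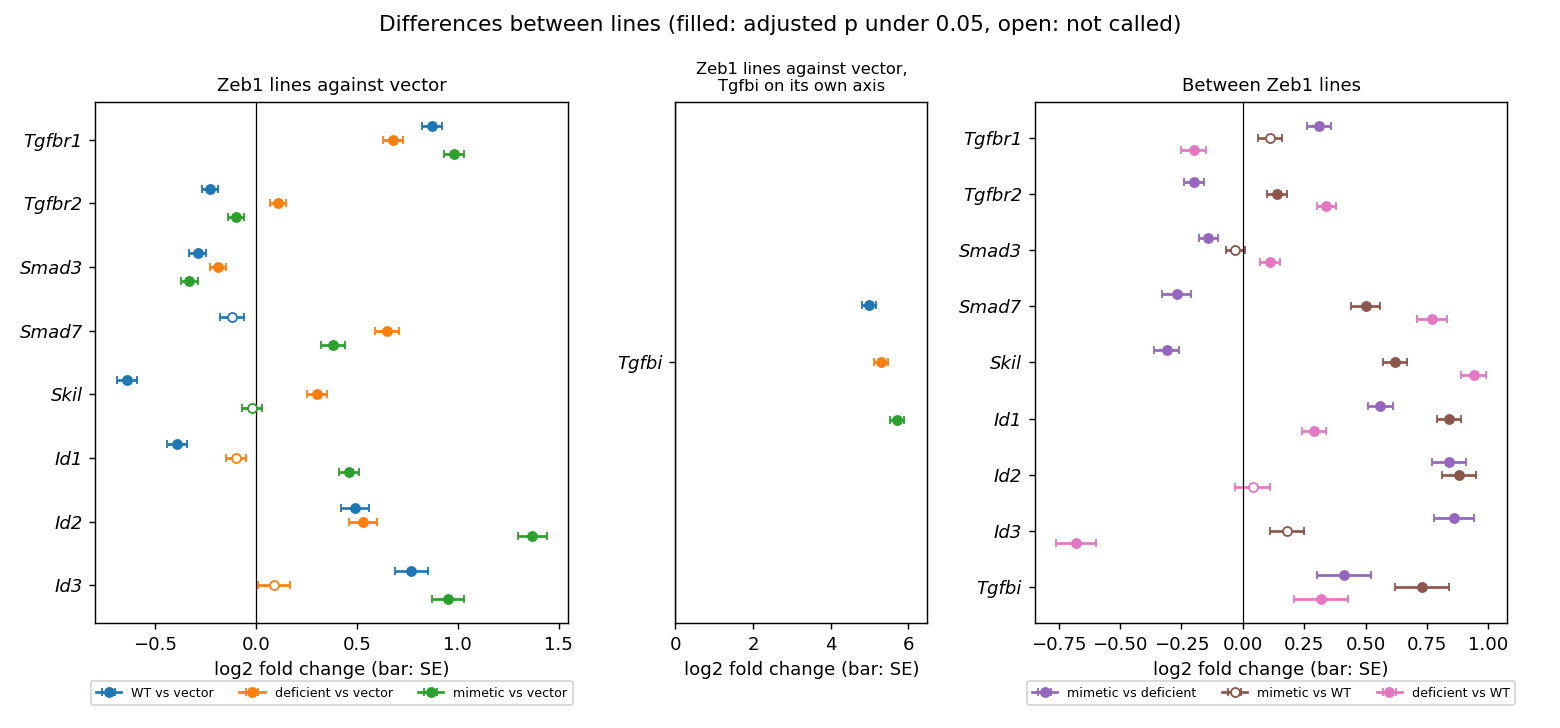
Log2 fold changes of the 9 genes (horizontal axes, bars are SE) for each Zeb1 line against vector, with Tgfbi on its own axis, and between the Zeb1 lines; filled points were called. Tgfbr1 is right of 0 in all 3 Zeb1 lines (0.68 to 0.98), Smad3 left of 0 (-0.33 to -0.19), and the ID genes of mimetic against deficient lie at 0.56 to 0.86.

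Between the mutants, mimetic exceeded deficient for 5 members (Tgfbr1, Id1, Id2, Id3 and Tgfbi) and was lower for 4 (Tgfbr2, Smad3, Smad7 and Skil). Among all tested genes 12.6% were higher and 14.9% lower. All 9 members were thus called in this comparison, against 27.4% of genes, and their libraries did not overlap for 9, against 41.3%. Members were chosen with earlier results of these data known, and the genes behind these shares were not matched to them for level. The counts of members set beside all genes, here and against vector, are thus a description. None (0) of the member differences between the mutants reached 2-fold, as 2.63% of all genes did and were called. With library-size scaling the call for Smad3 was lost, and the share of higher calls over all genes went from 45.8% to 56.8%. Relative to WT, 6 members were higher in mimetic and the other 3 not called (23.1% of all genes higher, 21.8% lower, 44.9% called). Library-size scaling moved the share of higher calls over all genes from 51.5% to 63.9% there. In deficient 6 were higher than in WT and 2 lower, Tgfbr1 and Id3 (27.5% and 26.3% of all genes, 53.8% called). Libraries did not overlap for 8 members in each of these comparisons with WT, against 56.7% of all genes for mimetic and 61.6% for deficient. None (0) of the members differed 2-fold from WT, as 5.61% of genes did in mimetic and 8.78% in deficient.

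Ratios of raw counts within a library need no scaling between libraries. Tgfbr2 counts were 4.05 to 4.28 times Tgfbr1 counts in vector, 1.91 to 1.98 in WT, 2.72 to 3.05 in deficient and 1.88 to 2.04 in mimetic. The receptor ratio was thus highest in vector, intermediate in deficient, and overlapped between WT and mimetic. Smad3 over Smad7 was 4.44 to 4.81 in vector, 3.79 to 4.46 in WT, 2.54 to 2.68 in deficient and 2.73 to 2.91 in mimetic, so that both mutants lay below both other lines. Id1 over Id3 was 4.75 to 5.2 in vector, 2.19 to 2.29 in WT, 4.2 to 4.64 in deficient and 3.15 to 3.84 in mimetic, with no overlap between lines. Id1 over Id2 was 5.75 to 6.29 in vector and 3 to 4.42 over the Zeb1 lines. These ratios show unequal change between 2 genes, not which of them changed.

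**Figure D3:**
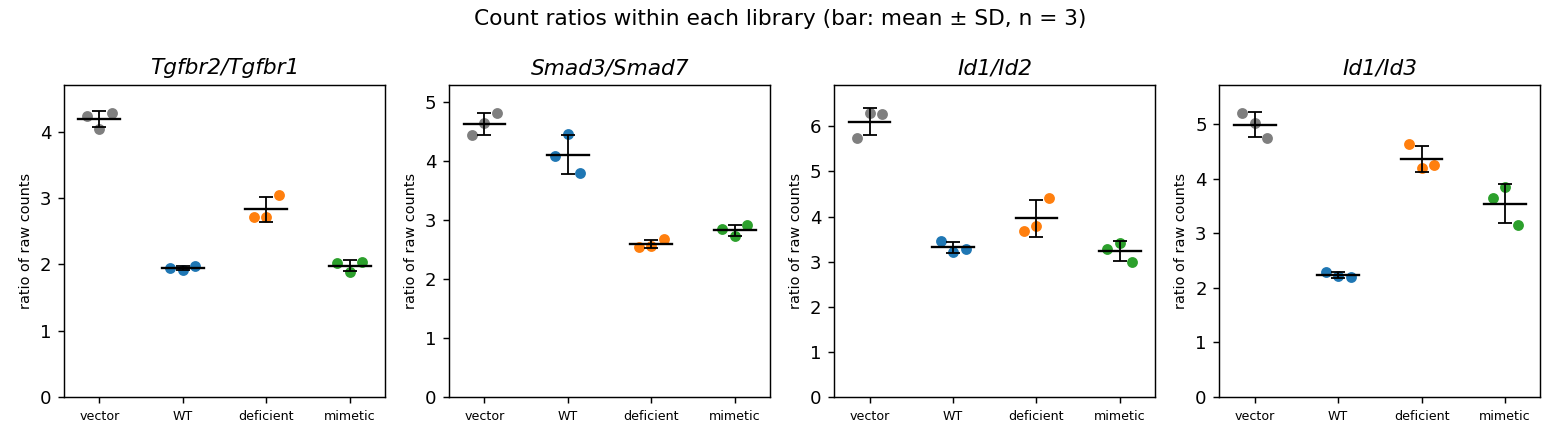
Ratios of raw counts of 2 genes within each library (vertical axes, from 0) for the 3 libraries of each line; points are libraries and bars the mean ± SD. The Tgfbr2 to Tgfbr1 ratio is 4.05 to 4.28 in vector and at most 3.05 in the Zeb1 lines, and the Id1 to Id3 ratio is lowest in WT at 2.19 to 2.29.

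To find the genes most like each member, the 4 line means of log2 CPM were centred per gene and the Euclidean distance to each of 9998 genes of at least 5 CPM was taken, as a description over 4 lines. None (0) of the 18 nearest genes, 2 per member, was another member. With so few members among 9998 genes, this count cannot tell whether members vary together. Rbm39 and Gak were nearest to Tgfbr2 (0.02 and 0.03), Abhd11 and Dennd6a to Smad3 (0.01 and 0.02), 2610524H06Rik and Cacna1a to Tgfbr1 (0.03 and 0.05), and Zfp810 and Noct to Smad7 (0.03 and 0.07). Zfand2a and Srgap3 were nearest to Skil (both 0.05), Tubb2a and St3gal6 to Id1 (both 0.07), Syt11 and Ckb to Id2 (0.11 and 0.20), and Asic1 and Antxr1 to Id3 (0.06 and 0.10). The nearest to Tgfbi, Mb21d1 and Olfr414, were farther off (0.32 and 0.51). Among the 36 pairs of members, Tgfbr2 and Smad3 were closest (0.24), followed by Smad7 and Skil (0.38). The distance is not scaled to the size of change, so genes that change little lie close whatever their direction. In deficient against vector, Tgfbr2 and Smad3 had opposite signs (log2 0.11 and -0.19).

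The other genes of the pathway were taken from 7 lists with 64 genes, of which 60 were tested. In WT against vector 20 rose and 21 fell (median -0.05), in deficient 26 rose and 8 fell (median 0.16), and in mimetic 27 rose and 11 fell (median 0.13). Over all tested genes 31% rose and 33.6% fell in WT, 28.4% and 29.8% in deficient, and 28.6% and 30.9% in mimetic, the background for each list below, and the WT counts over the 7 lists are near it.

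Ligands moved in several directions, with 10 of 11 tested. In WT against vector 4 rose and 4 fell (31% and 33.6% of all genes), in deficient 4 rose and 2 fell (28.4% and 29.8%), and in mimetic 7 rose and 1 fell (28.6% and 30.9%). Bmp7, a BMP ligand, rose from 9.92 ± 1.4 CPM with vector to 21.9 ± 0.73 in WT, 39.6 ± 2.1 in mimetic and 54.7 ± 6.2 in deficient (SD, n = 3). Tgfb2 rose from 0.975 ± 0.088 CPM with vector to 1.96 ± 0.3 in WT, 2.96 ± 0.17 in deficient and 3.45 ± 0.41 in mimetic. Tgfb1, the most studied TGF-beta ligand, named here after its values were seen, was at 21.8 ± 2.5 CPM with vector and fell in WT (log2 -0.68, adjusted p = 0.000315), deficient (-0.40, adjusted p = 0.0208, libraries overlapping) and mimetic (-0.45, adjusted p = 0.00965). Tgfb3, with a higher mean than Tgfb1 in every line (40.9 ± 1.6 CPM with vector), fell in WT (log2 -0.34, adjusted p = 8.27e-05). It rose in deficient (0.25, adjusted p = 0.00177) and was not called in mimetic (0.1, adjusted p = 0.186). Between the mutants 2 ligands were higher in mimetic, Bmp4 (25.6 ± 2 against 17.1 ± 1.2 CPM, adjusted p = 3.63e-05) and Gdf11, and 2 were lower, Bmp7 and the activin subunit Inhba (6.73 ± 0.94 against 12.2 ± 0.46 CPM, adjusted p = 1.2e-05).

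Among the 8 other receptors tested, Tgfbr3, the coreceptor betaglycan, fell in every Zeb1 line. It stood at 12.3 ± 1.6 CPM in vector, 5.87 ± 0.34 in mimetic, 2.05 ± 0.32 in deficient and 0.26 ± 0.15 in WT, with log2 fold changes against vector of -1.07, -2.58 and -5.54. The BMP receptor Bmpr1a rose from 136 ± 8.2 CPM to 165 ± 8 in WT, 174 ± 7.2 in deficient and 203 ± 7.7 in mimetic. Of the 8 receptors 3 rose and 3 fell in WT (31% and 33.6% of all genes), 2 and 2 in deficient (28.4% and 29.8%), and 3 and 2 in mimetic (28.6% and 30.9%), close to the background. Bambi did not pass the filter on low counts.

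Of the 5 other SMADs tested, Smad6, the inhibitor most tied to BMP signalling, was highest in mimetic at 18.6 ± 1.4 CPM, against 14.6 ± 0.81 in deficient, 12.1 ± 0.99 in WT and 13.5 ± 1.8 in vector. It rose in mimetic against vector (log2 0.46, adjusted p = 0.000679) and was higher in mimetic than in WT (adjusted p = 7.23e-05) and than in deficient (adjusted p = 0.0153). Smad1, a BMP signal carrier, rose against vector in WT (log2 0.40, adjusted p = 1.47e-05), deficient (0.16, adjusted p = 0.0384, libraries overlapping) and mimetic (0.26, adjusted p = 0.00144). Smad2 fell against vector in WT (log2 -0.22) and deficient (-0.15), and Smad4, the shared partner, fell in deficient (-0.20) and mimetic (-0.13). Both lie on chromosome 18, where the median log2 fold change against vector was -0.25, -0.26 and -0.29 in WT, deficient and mimetic. The falls of both genes were no larger than that, and the part of the chromosome in them was not tested. In the list 1 rose and 1 fell in WT (31% and 33.6% of all genes), and 1 and 2 in deficient (28.4% and 29.8%). In mimetic 2 rose and 1 fell (28.6% and 30.9%), and these counts are near the background.

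Among 12 signal regulators, 6 rose and 1 fell in WT, 6 rose and 6 were not called in deficient, and 7 rose and 2 fell in mimetic, against vector. Of all genes 64.6%, 58.2% and 59.5% were called in those comparisons. Pmepa1, a TGF-beta-induced membrane protein that restrains SMAD signalling, had the lowest mean in WT and the highest in deficient, as Smad7 and Skil did. Its level was 287 ± 34 CPM in deficient, 151 ± 9.3 in mimetic, 140 ± 1.1 in vector and 105 ± 3.7 in WT, and deficient exceeded WT 2.73-fold (adjusted p = 1.71e-13).

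Other TGF-beta-induced genes were highest in deficient for 10 of 12, a count that leaves out 1 gene of the list as first drawn up. This count rests on line means, and not all of the 10 were called above the next line. Ctgf had 181 ± 8.3 CPM in deficient and 167 ± 7.1 in vector (adjusted p = 0.0764). Fn1 had 835 ± 36 CPM in deficient and 805 ± 55 in mimetic (adjusted p = 0.672). The share of all tested genes that were highest in deficient was not computed. Against vector, 4 rose and 7 fell in WT (median -0.39), 7 rose and 5 were not called in deficient (median 0.32), and 3 rose and 3 fell in mimetic (median 0.02), where 31%, 28.4% and 28.6% of all genes rose and 33.6%, 29.8% and 30.9% fell. In deficient against WT 11 were higher and 1 not called (median 0.74, over all genes 0.01), and 27.5% of all genes were higher. In mimetic against deficient 8 were lower and 4 not called (median -0.28, over all genes 0), and 14.9% of all genes were lower. The cell cycle inhibitor Cdkn1a was 7.65 ± 0.4 CPM in mimetic and 20.1 ± 1 in deficient, the matricellular gene Ctgf 140 ± 10 and 181 ± 8.3, and Bhlhe40 79.3 ± 2.7 and 144 ± 4.7. The ID genes, all 3 of which were higher in mimetic than in deficient, thus had the opposite sign to the 8 called genes of this list, as did the TGF-beta-induced member Tgfbi (log2 0.41).

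**Figure D4:**
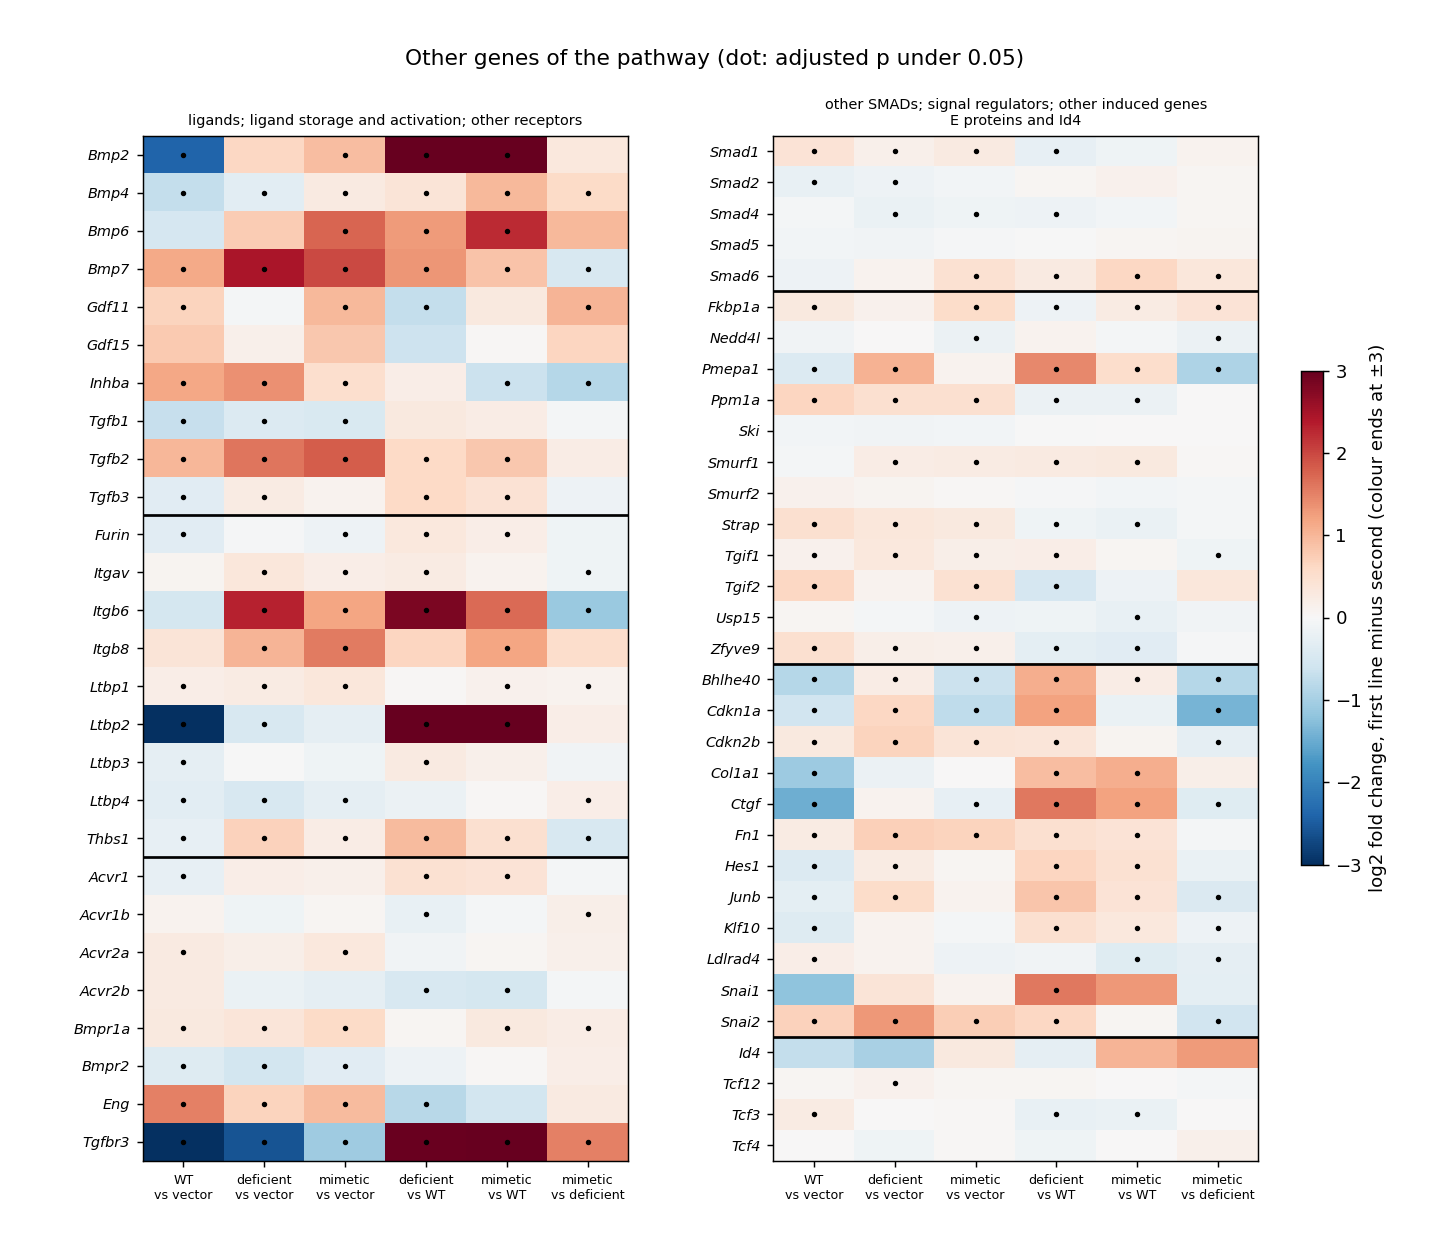
Log2 fold changes (colour, first line minus second, ending at ±3) of the 60 other pathway genes (rows, grouped by list) in 6 comparisons of lines (columns); dots mark calls. Pmepa1, Bhlhe40, Cdkn1a and Ctgf are red in deficient against WT and blue in mimetic against deficient, and Tgfbr3 is blue in all 3 comparisons with vector (-5.54 to -1.07).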

How the data were processed

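RNA of 12 libraries, 3 for each of 4 lines, was measured with the QuantSeq 3' mRNA-Seq forward kit, per the labels' protocols. The submitters' processing notes name STAR and mm10. Not given in the sources used here: its version, the counting tool, the annotation and the strand, so antisense or copied genes are uncertain. The authors deposited raw counts per gene, 1 column per library; the smallest count is 1, so genes with 0 counts in any library are not analysed here.

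Counts were filtered with filterByExpr, which removed 181 genes, scaled by TMM and fitted in edgeR 4.0.16 (R 4.3.3) with 1 coefficient per line over all 12 libraries. The 6 pairs of lines were tested, which gives 54 tests of members. The SE is the log2 fold change divided by the square root of F. Alternatives were DESeq2 1.42.0, limma-voom (3.58.1), RLE, library-size scaling, no filter, a filter of 5 CPM in 3 libraries, fits of 2 lines, a replicate block, and leaving out each library. The procedure was tested on simulated data. Any 2 replicates of a line differed beyond sampling noise, with a mean chi-square of 2.96 to 6.23 per gene, but 13.7 and 21.2 for the pairs with vector replicate 3 and 17.1 and 23.6 for those with deficient replicate 3. Each was counted, and member calls that change without either of these libraries are given beside the result.

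Text names the 9 members, and per pathway list up to 4 genes with the smallest adjusted p in a comparison described. Tgfb1 was named outside this rule, after its values were seen. In the list of other induced genes, 1 gene is not reported here and was left out of that list's counts and medians after they were first computed. Members and lists were chosen with earlier results of these data known. Gene positions are from GENCODE M21, where 12195 of 12208 IDs matched, including all 9 members, and no other gene there overlaps a member; promoters are from RefSeq (GRCm38.p6).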

Additional observations from a re-analysis of the deposited data

How the results depend on the processing

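Of 1080 recomputed member values (9 genes, 6 comparisons, 20 alternatives), 1031 kept their direction and their side of the threshold; 28 lost a call, 15 gained one and 6 changed sign, all 6 in differences that were not called. These were Skil in mimetic against vector, with 0.06 under library-size scaling, 0 with a filter at 5 CPM and -0.07 to 0.02 over the fits without 1 library, Smad3 in mimetic against WT, with 0.02 under library-size scaling, and Id2 in deficient against WT, which was -0.01 to 0.11 without 1 library. The number of members lower in mimetic than in vector, 2, was 1 under library-size scaling, with a filter at 5 CPM and in a fit of those lines alone, and 1 to 2 without 1 library. The number lower in deficient than in vector, 1, was 1 to 2 without 1 library. No other count of members, and no count of called genes, moved over 1.5 times in any alternative run. No alternative moved the median of all genes by more than 0.07 on the log2 scale.

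Replicate numbers did not pair the libraries in every pair of lines. Deviations from the line mean correlated at over 0.1 in 5 of 18 same-numbered pairs (-0.13 to 0.32) and in 6 of 36 others (-0.27 to 0.22). Same-numbered pairs had 0.06, 0.21 and 0.12 between vector and WT, and 0.2, 0.01 and 0.32 between deficient and mimetic. Between vector and deficient they had -0.12, 0.01 and -0.13. Whether numbers pair the libraries of some lines only was not tested. With the replicate block, 7852, 7080 and 7250 genes were called in WT, deficient and mimetic against vector (7769, 7001 and 7158 without it). The block added 1 member call, Id3 in mimetic against WT. Low counts limit Tgfbi most, with 5 to 15 in a vector library.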

Other observations

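Of 9 tested genes that store and activate TGF-beta outside the cell, 1 rose, 5 fell and 3 were not called in WT against vector, and 5 rose, 2 fell and 2 were not called in each mutant. Over all genes 31% rose and 33.6% fell in WT, 28.4% and 29.8% in deficient, and 28.6% and 30.9% in mimetic. Ltbp2, a latent TGF-beta binding protein family member, had a level of 0.584 ± 0.18 CPM in WT, against 7.38 ± 0.46 with vector, 5.3 ± 0.66 with deficient and 6.14 ± 0.79 with mimetic (SD, n = 3). It was lower in WT than in vector (log2 -3.63, SE 0.20, adjusted p = 2.8e-12, edgeR's quasi-likelihood test) and than in either mutant, with all 3 WT libraries under every other library. Ltbp1, which anchors latent TGF-beta in the matrix, rose in every Zeb1 line by 0.20, 0.24 and 0.34 on the log2 scale in WT, deficient and mimetic. Itgb6, a subunit of an integrin that activates latent TGF-beta, was 2.82 higher in deficient than in WT (SE 0.34, adjusted p = 7.12e-07) and lower in mimetic than in deficient (log2 -1.12, SE 0.29, adjusted p = 0.0067), at low levels of 0.335, 2.4 and 1.11 CPM in WT, deficient and mimetic.

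The E proteins that ID proteins bind changed little. Tcf3 rose in WT against vector by 0.24 (SE 0.07, adjusted p = 0.00377) and was lower than WT in both mutants, by -0.22 and -0.21. Tcf12 was called only in deficient against vector (log2 0.12, SE 0.05, adjusted p = 0.0432), where the libraries overlapped. Log2 fold changes of Tcf4 were -0.14 to 0.16, with adjusted p of 0.0585 or more.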
